A study of Mus musculus with 394 samples.

Results

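The libraries described here are anti-HA immunoprecipitates (IPs) and lysates (Inputs) of striatal synaptosomes from RiboTag mice, chosen by their sample labels for tissue preparation, fraction and age (10–14 months). All mice carried the RiboTag allele, which lets Cre recombinase fuse an HA tag to the ribosomal protein eL22. Cre+ mice (DAT IRES-Cre/wt;RiboTag+/−) express Cre under the dopamine transporter locus. Tagged ribosomes are therefore limited to cells that have used this locus, mainly midbrain dopamine neurons. By staining, the study detected the tag in their cell bodies and dendrites but not in their striatal axons. Cre- mice (DAT wt/wt;RiboTag+/−) have no tagged ribosome and are the control for what antibody and beads hold without it. Of 32 such libraries among the 394 samples of the series, 4 Inputs held under 10000 unique molecular identifiers (UMIs, molecules counted once) and were left out. This left 28 libraries, with 4 IPs and 10 Inputs of each genotype. The labels do not say whether these libraries came from separate mice, so the p-values measure the spread between libraries, which may be technical. Levels are given as CPM, a gene's UMIs scaled by the library's total UMIs.

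Synaptosomes are pinched-off nerve endings with attached pieces of postsynaptic and glial membrane, and their crude pellet (P2) also carries free mitochondria and myelin. Nerve endings hold many mitochondria, which have a genome of their own that encodes respiratory chain subunits, both RNAs of the mitochondrial ribosome and the tRNAs it needs. Its transcripts are made as long precursors, in which tRNAs lie between most of the other genes and are cut out of them. Mitochondrial ribosomes have no eL22, so mitochondrially encoded RNA is not a target of the anti-HA antibody, and in Cre- mice no RNA is. The comparison of IP with Input therefore shows which RNAs of the lysate stayed in the eluate of the beads in either genotype. The genotype by fraction term asks whether that difference itself differs in mice whose dopamine neurons carry tagged ribosomes.

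The RNAs that set the IPs furthest apart from the Inputs were the mitochondrial tRNAs. The 4 with the smallest adjusted p in the comparison below are shown with their sequences (chrM of GRCm38, GENCODE vM21, 5′ to 3′ on the coded strand, with the anticodon in capitals), since they are the features on which the counts lay. The gene *mt-Tc* (tRNA-Cys) lies at chrM:5192-5257 on the minus strand, *mt-Th* (tRNA-His) at chrM:11546-11612 on the plus strand, *mt-Tm* (tRNA-Met) at chrM:3845-3913 on the plus strand and *mt-Tf* (tRNA-Phe) at chrM:1-68 on the plus strand.
mt-Tc: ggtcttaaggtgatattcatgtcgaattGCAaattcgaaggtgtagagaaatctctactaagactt
mt-Th: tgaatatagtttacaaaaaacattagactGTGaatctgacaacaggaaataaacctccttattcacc
mt-Tm: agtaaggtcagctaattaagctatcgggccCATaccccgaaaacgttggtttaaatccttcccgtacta
mt-Tf: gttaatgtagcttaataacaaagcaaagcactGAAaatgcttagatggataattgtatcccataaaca

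The libraries held few molecules. Cre- IPs held 27604 to 54675 UMIs, Cre+ IPs 21218 to 22950, and Inputs 12735 to 23921, with 3553 to 8397 genes detected per library. Cre- IP replicate 4 stood apart, with 54675 UMIs and 8397 genes where the other Cre- IPs had at most 28526 UMIs. *Dusp10*, a phosphatase of MAP kinases, took 7.78 to 20.3% of the UMIs of an IP (median 17.3%) and 14.8 to 27.5% of those of an Input (median 20.1%). In whole striatum of the same age it took 1.69 to 7.93% of an IP and 1.05 to 2.94% of an Input. It took at most 0.0227% in midbrain synaptosomes, and both of these preparations carry other batch codes. In striatal synaptosomes the log2 fold change of *Dusp10* was −0.42 ± 0.12 (SE), and scaling without it is given where it changes a count. Markers of striatum were present in both fractions. The 16 spiny neuron markers summed to 3205 to 4202 CPM in IPs and 2883 to 7215 in Inputs, with 1 of 16 at 0 in every library of each fraction, and *Ppp1r1b* (DARPP-32) and *Penk* (enkephalin) were tested and did not pass (log2 fold changes of −0.30 and 0.14). Glia were present too. The 20 astrocyte markers summed to 8483 to 13919 CPM in IPs and 8523 to 12341 in Inputs, the 15 oligodendrocyte markers to 5180 to 8925 and 3950 to 7450, and the 13 microglial markers to 4383 to 6749 and 4322 to 7477. In bulk libraries such as these, fewer particles of a type and less RNA per particle cannot be told apart.

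Over both genotypes, 555 of 6882 genes tested (8.06%) differed between IP and Input at an adjusted p under 0.05 (edgeR quasi-likelihood test with genotype as covariate, Benjamini-Hochberg adjustment over all genes tested). Of these, 464 (6.74%) were lower in the IPs and 91 (1.32%) higher, and the median log2 fold change of all genes tested was −0.01. The 464 lower genes were of 3 kinds: mitochondrially encoded RNAs (22 tRNAs, 2 rRNAs and 7 mRNAs), pseudogenes (350 genes) and a smaller number of nuclear genes, among them short ribosomal protein mRNAs. In all 8 fits that leave out 1 IP, 297 of the lower genes (4.32% of those tested) and 18 of the higher ones (0.262%) stayed called. For 37 lower genes (0.538%) the 8 IPs and 20 Inputs did not overlap in CPM, and for 0 higher genes. Without Cre- IP replicate 4, 376 genes were called (64 higher and 312 lower), and with the Inputs summed per genotype 344 (12 higher and 332 lower). Scaling moved the balance more than the number, since with TMMwsp scaling 574 genes were called, of which 35.4% were higher against 16.4% here, and with total UMIs 561, of which 30.7% were higher. These scalings shifted the median of all genes by 0.20 and 0.16.

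**Figure D1:**
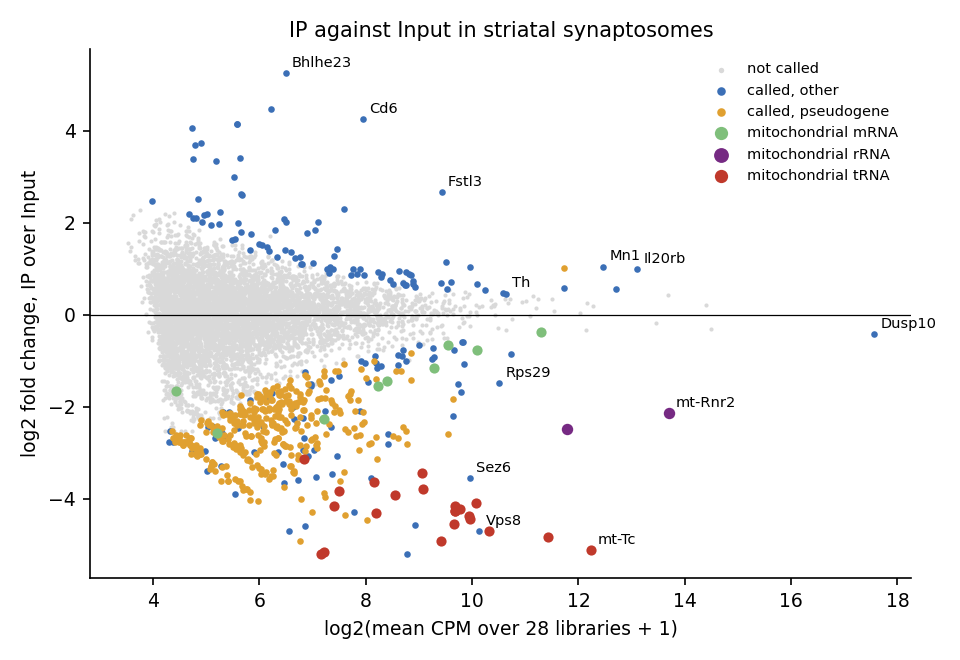
Log2 fold change of IP over Input (y axis) against log2 of the mean CPM over 28 libraries plus 1 (x axis), 1 point per tested gene, coloured by kind and by call. Mitochondrial tRNAs and rRNAs lie at the bottom right, called pseudogenes fill the lower left, and *Dusp10* lies alone at the far right near 0.

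All 22 mitochondrial tRNAs were lower in the IPs, with log2 fold changes from −5.20 to −3.15 (median −4.27, against −0.01 over all genes tested). The median was −4.20 with the 2 tRNAs that had no UMI in any IP set at the bound given below. *mt-Tc*, the most abundant tRNA, was counted at 218, 91.5, 141 and 318 CPM in the 4 Cre+ IPs and at 175, 316, 217 and 219 CPM in the 4 Cre- IPs. The 20 Inputs ranged from 4643 through a median of 6570 to 9990 CPM. Every IP thus lay far below every Input, in each genotype, and the means were 212 ± 78.4 CPM (SD, n = 8) and 6701 ± 1398 CPM (SD, n = 20). The log2 fold change was −5.12 ± 0.20 (SE; adjusted p = 3.32e-44), and it was −5.03 within Cre- and −5.14 within Cre+ libraries.

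*mt-Th* was at 45.4, 107 and 281 CPM in the IPs (lowest, median and highest) and at 2204, 3633 and 5189 CPM in the Inputs, for a log2 fold change of −4.83 ± 0.23 (adjusted p = 8.45e-38). *mt-Tm*, with the anticodon that reads the start codon, was at 0, 58.6 and 137 CPM against 569, 1801 and 2451 CPM (−4.71 ± 0.27). *mt-Tf*, which lies at the first base of the mitochondrial reference and ahead of *mt-Rnr1*, was at 0, 44.5 and 189 CPM against 939, 1274 and 1934 CPM (−4.43 ± 0.27). None of these 4 tRNAs overlapped between fractions. *mt-Tg* (tRNA-Gly) and *mt-Tl2*, one of the leucine tRNAs, had 0 UMIs in the 8 IPs together, against 75 and 73 in the Inputs, which puts them at least 15.8-fold and 15.4-fold lower with a floor of 3 UMIs over the group. The smallest change was that of *mt-Ts2*, one of the serine tRNAs, with 3 IP and 55 Input UMIs (−3.15 ± 0.53). The levels of 19 of the 22 tRNAs did not overlap between IPs and Inputs. The 14 tRNAs on the plus strand and the 8 on the minus strand had medians of −4.37 and −4.25. All 22 were called within each genotype alone, with medians of −4.42 (Cre-) and −4.36 (Cre+). Whether these reads came from mature tRNAs or from uncut precursors was not tested, and the strandedness of the counting is not given in the sources used here.

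Both mitochondrial rRNAs were lower as well, by less. *mt-Rnr2*, the large subunit rRNA, was at 3834, 3707, 4336 and 4582 CPM in the Cre+ IPs and at 3751, 4146, 3623 and 6310 CPM in the Cre- IPs. The Inputs ranged from 12315 through 16892 to 20652 CPM and did not reach down to the highest IP, Cre- replicate 4. The log2 fold change was −2.14 ± 0.13 (adjusted p = 2.34e-29). *mt-Rnr1*, the small subunit rRNA, was at 610, 882 and 1445 CPM in the IPs and at 3612, 4426 and 6282 CPM in the Inputs (−2.49 ± 0.15).

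The mitochondrial mRNAs had a smaller median change and spread from near 0 to values like those of the rRNAs. Of 13, 9 were tested and 7 were lower (median −1.44), while *mt-Co2*, *mt-Atp6*, *mt-Co3* and *mt-Nd4l* had 6, 9, 4 and 2 UMIs in the 28 libraries together, under the 10 needed for a test. *mt-Nd1*, the most abundant of those tested and a subunit of complex I, was at 1578, 2365 and 2743 CPM in the IPs and 1923, 2658 and 3412 CPM in the Inputs, and its log2 fold change of −0.38 ± 0.14 did not pass (adjusted p = 0.0699). *mt-Cytb*, of complex III, was at 421, 828 and 1044 CPM against 662, 1222 and 1649 CPM (−0.78 ± 0.18, adjusted p = 7.92e-04). *mt-Co1*, of cytochrome oxidase, was at 136, 357 and 476 CPM against 449, 742 and 1099 CPM (−1.16 ± 0.21). *mt-Nd4* (−0.67), *mt-Nd5* (−1.44), *mt-Nd2* (−1.54), *mt-Atp8* (−2.28) and *mt-Nd6* (−2.56, on 1 IP and 18 Input UMIs) passed too, and *mt-Nd3* did not (−1.65, adjusted p = 0.265). IPs and Inputs overlapped for each of the 9 mRNAs. Of the 7 calls 5 stayed with each IP left out in turn, and 3 mRNAs were called in Cre- and 3 in Cre+ libraries alone. The call of *mt-Nd4* was lost in 7 of 41 alternative settings, TMMwsp among them (adjusted p = 0.163), and that of *mt-Nd6* in 5 of 39, DESeq2 and the fit without Cre- IP replicate 4 among them. As shares of a library, tRNAs made up 0.0947 to 0.151% of UMIs in IPs and 1.93 to 3.65% in Inputs, rRNAs 0.427 to 0.775% and 1.599 to 2.69%, and mRNAs 0.294 to 0.552% and 0.536 to 0.770%.

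**Figure D2:**
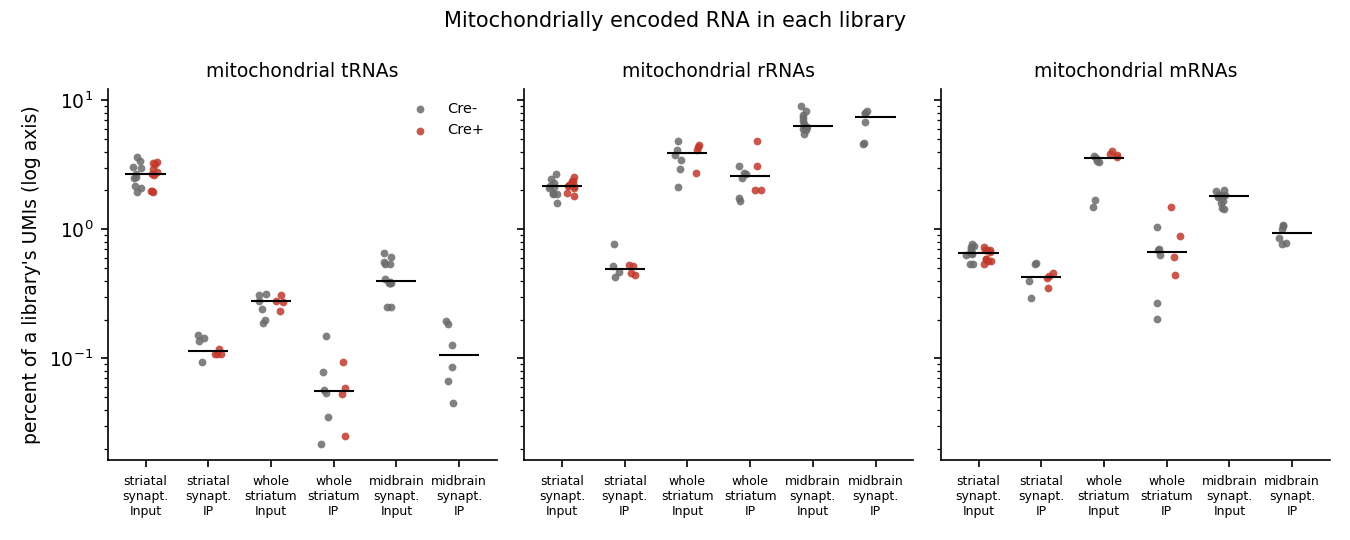
Percent of a library's UMIs (log y axis) on mitochondrial tRNAs, rRNAs and mRNAs in Inputs and IPs of striatal synaptosomes, whole striatum and midbrain synaptosomes, 1 point per library with Cre+ in red, Cre- in grey and a bar at the group median. The striatal synaptosome Inputs are the highest group for tRNAs (1.93 to 3.65%), and their IPs lie below all of them.

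The other 2 RiboTag preparations were compared to ask whether this pattern belongs to IPs in general. Both carry batch codes other than that of the striatal synaptosomes, so preparation and batch cannot be told apart. In whole striatum of the same age (10 IPs and 10 Inputs, both genotypes), tRNA shares were 0.0219 to 0.150% in IPs and 0.188 to 0.318% in Inputs. In midbrain synaptosomes without Cre (6 IPs, 12 Inputs) they were 0.0448 to 0.195% and 0.250 to 0.659%. Whole striatal IPs held 16810 to 55444 and Inputs 76769 to 180377 UMIs, and midbrain IPs 16533 to 43351 and Inputs 33287 to 70717. The IP shares of the 3 preparations thus overlapped, and the striatal synaptosome Inputs stood above the other Inputs. Of the tRNAs tested, 9 of 19 were lower in whole striatal IPs (median −1.93). There 11.1% of all genes tested were called, 5.01% lower and 6.08% higher, and the balance turned with TMMwsp scaling, under which 379 genes were higher and 1452 lower. In midbrain IPs 14 of 21 were lower (median −1.71), where 3.23% of all genes tested were called, 1.57% lower and 1.66% higher (99 higher and 277 lower with TMMwsp). In a joint fit of the difference of fold changes against whole striatum, 240 of 12838 genes were called (1.87%), 193 of them more negative (1.50%) and 47 more positive (0.366%) in striatal synaptosomes. Against midbrain synaptosomes, a fit on Cre- libraries alone and so with 4 striatal IPs, 28 of 10328 were called (0.271%), 24 more negative (0.232%) and 4 more positive (0.0387%). Both balances turned with TMMwsp scaling. It gave 639 more positive and 92 more negative genes against whole striatum and 224 and 15 against the midbrain. The median difference of all genes moved by 0.69 and 0.87. On simulated counts, genes without a planted change had a median of 0.49 and 0.60 with TMMwsp in these 2 fits. With the scaling first used it was −0.02 and 0.03. The simulated libraries shared 1 mean profile apart from the planted changes, and so lacked the differences in composition between preparations and fractions. They therefore cannot show which scaling suits the real counts. In the fits as first given 9 of 22 tRNAs fell further in striatal synaptosomes than in whole striatum and 7 of 22 further than in midbrain synaptosomes. For *mt-Tc*, this difference was −3.82 ± 0.65 (adjusted p = 7.27e-06) against whole striatum and −3.66 ± 0.58 (adjusted p = 1.04e-05) against the midbrain. With TMMwsp 8 and 5 of the 22 were called, all more negative, and the difference of *mt-Tc* was −3.05 and −2.67. The median difference over all genes was −0.17 and −0.08 as first scaled.

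*mt-Rnr2* had the smallest p in both tests of the difference between preparations. It did not differ detectably between IP and Input of whole striatum (0.11, adjusted p = 0.842) or of midbrain synaptosomes (0.35, adjusted p = 0.0648). The difference to the striatal synaptosomes was −2.34 ± 0.22 (adjusted p = 4.35e-17) and −2.64 ± 0.22 (adjusted p = 4.58e-18), or −1.45 and −1.60 with TMMwsp, where both passed. The other rRNA, *mt-Rnr1*, was lower in IPs of whole striatum (−1.95, adjusted p = 1.81e-10) and of midbrain synaptosomes (−1.28, adjusted p = 1.32e-15). Its difference was not called against whole striatum (−0.59 ± 0.25, adjusted p = 0.251) but was against the midbrain (−1.26 ± 0.23, adjusted p = 1.94e-04). With TMMwsp neither was called (0.24 and −0.21). Of the mitochondrial mRNAs 3 differed from whole striatum in the direction opposite to that of *mt-Rnr2*. The 9 tested in striatal synaptosomes were all lower in whole striatal IPs, with a median of −1.96, and the fold changes of *mt-Cytb*, *mt-Nd4* and *mt-Nd1* were less negative in striatal synaptosomes, by 1.91 ± 0.27, 1.81 ± 0.28 and 1.47 ± 0.25 (adjusted p = 5.61e-08, 8.24e-07 and 5.37e-06). All 9 were lower in midbrain IPs as well (median −0.97), and for 0 of 9 was the difference between the regions called, against 3 with TMMwsp, all more positive.

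**Figure D3:**
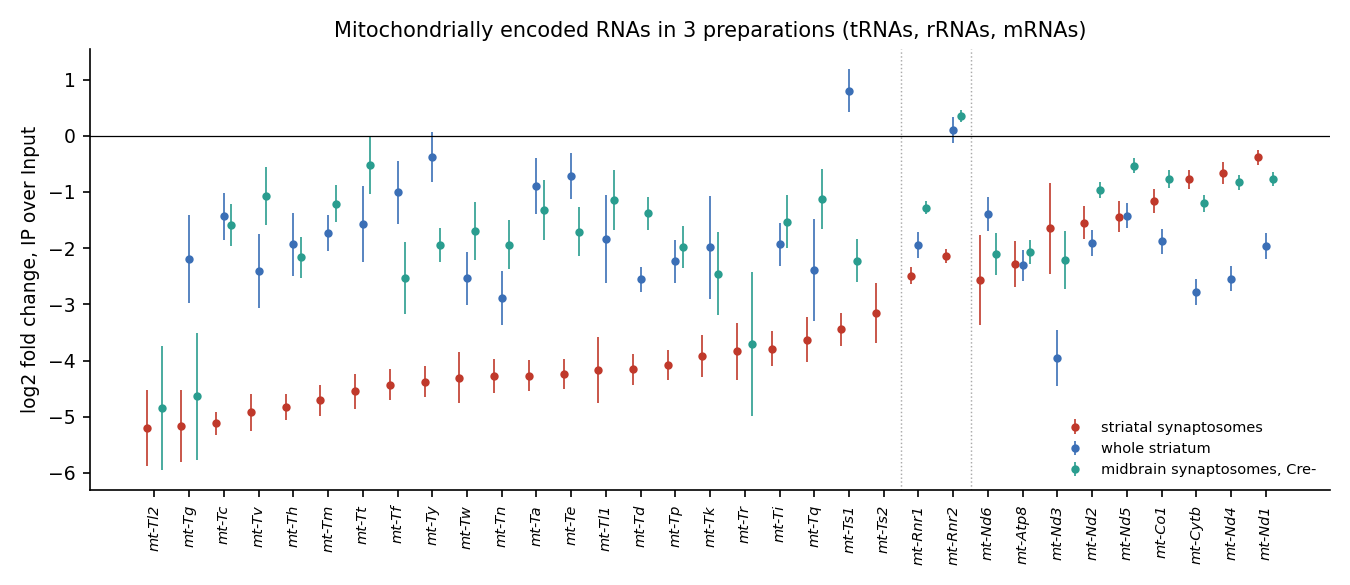
Log2 fold change of IP over Input with its SE for each mitochondrially encoded RNA (x axis: tRNAs, rRNAs and mRNAs between dotted lines) in striatal synaptosomes (red), whole striatum (blue) and midbrain synaptosomes of Cre- mice (green). The red points of the tRNAs run from −5.20 to −3.15 and those of the mRNAs from −2.56 to −0.38, and in whole striatum *mt-Ts1* lies above 0.

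Pseudogenes were the largest class of lower genes by number. Processed pseudogenes are copies of mRNAs pasted back into the genome, and their counts are uncertain, because a read from the parent mRNA can be placed on the copy. Of 1134 pseudogenes tested, 350 (30.9%) were lower and 1 higher in the IPs, with a median log2 fold change of −1.24, or −1.21 with the 70 at 0 in every IP set at their bound. Of 5575 nuclear protein-coding genes tested, 69 were lower and 81 higher, with a median of 0.11. Among 147 ribosomal protein pseudogenes, 85 were lower, with a median of −1.98. *Gm14303*, like the next gene named after its values were seen, was at 35.1, 188 and 362 CPM in the IPs and 437, 903 and 1513 CPM in the Inputs (−2.59 ± 0.27). *Rpl38-ps2*, a copy of *Rpl38*, had 20 UMIs in the IPs and 207 in the Inputs (−2.81 ± 0.30). For both genes every IP lay below every Input.

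The share of UMIs on ribosomal protein pseudogenes did not overlap between fractions. It was 0.410, 0.458, 0.401 and 0.390% in the Cre+ IPs and 0.512, 0.278, 0.529 and 0.124% in the Cre- IPs, and it was 1.10, 1.41 and 2.03% in the Inputs (lowest, median and highest). All pseudogenes together took 5.45 to 6.97% of the Cre+ IPs, 10.6, 6.98, 11.8 and 2.05% of the Cre- IPs and 8.33 to 15.1% of the Inputs, so that for the whole class 2 Cre- IPs lay within the range of the Inputs. Cre- IP replicate 4 had the lowest share and the most UMIs. Without it, 217 of 1123 pseudogenes were lower (median −0.99). Within Cre- libraries 179 of 740 pseudogenes were lower and within Cre+ libraries 64 of 753, where 5.60% and 2.82% of all genes tested were lower. In whole striatum, 33 of 1137 pseudogenes were lower in the IPs (2.90%, against 5.01% of all genes tested). In midbrain synaptosomes 28 of 571 were lower (4.90%, against 1.57%). The median log2 fold change of pseudogenes was −0.12 in whole striatum and −1.06 in midbrain synaptosomes. That of ribosomal protein pseudogenes was −0.26 and −1.57. The difference to whole striatum was called for 68 of 1668 pseudogenes, all further down in striatal synaptosomes, and the difference to the midbrain for 5 of 1124. With TMMwsp scaling 38 were called further down and 1 less far against whole striatum.

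**Figure D4:**
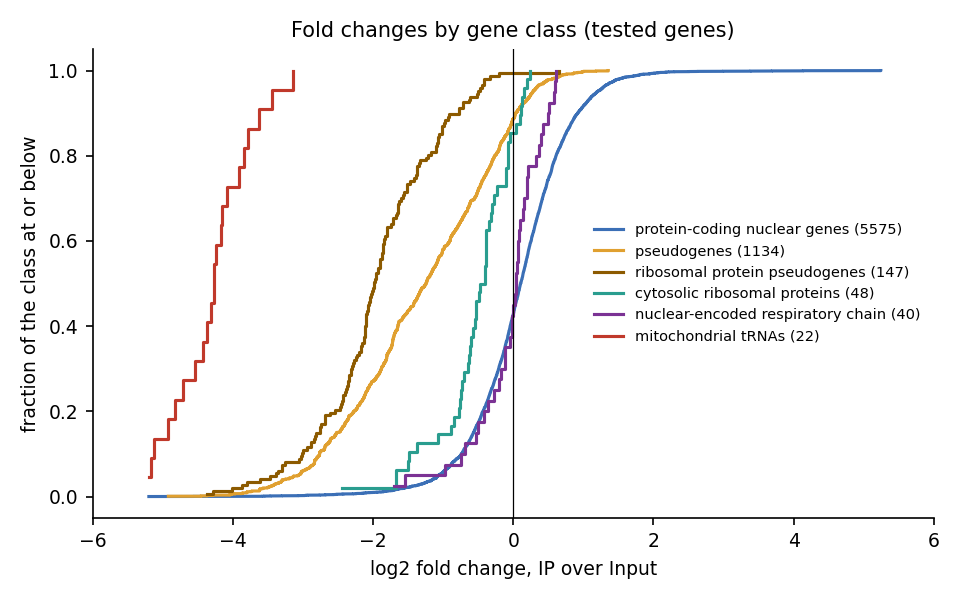
Cumulative share of each gene class (y axis) at or below a given log2 fold change of IP over Input (x axis), for 6 classes with the number of tested genes in brackets. The curves run in order from mitochondrial tRNAs (median −4.27) through ribosomal protein pseudogenes (−1.98) and all pseudogenes (−1.24) to cytosolic ribosomal proteins (−0.44), with respiratory chain and other nuclear genes near 0.

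Among nuclear genes of the translation machinery, some ribosomal protein mRNAs fell. For comparison with the counts below, 6.74% of all genes tested were lower and 1.32% higher. Of nuclear protein-coding genes 1.24% were lower and 1.45% higher. Of the 48 tested mRNAs in the list of cytosolic ribosomal proteins, 10 were lower and 0 higher (median −0.44). These were *Rps29*, *Rps28*, *Rps27*, *Rps21*, *Rpl41*, *Rpl38*, *Rpl37*, *Rpl36*, *Rpl35* and *Rpl24*. Over all 83 ribosomal protein genes tested, 17 were lower and 1 higher (median −0.40). In midbrain synaptosome IPs 45 of 83 were lower and 1 higher (median −0.84), and in whole striatal IPs 13 and 1 (median −0.20). *Rps29*, a small zinc-binding subunit protein, was at 828, 412, 707 and 817 CPM in the Cre+ IPs and 806, 562, 797 and 640 CPM in the Cre- IPs. The Inputs were at 1092, 1736 and 2820 CPM, so that the fractions did not overlap (log2 fold change −1.48 ± 0.18, adjusted p = 3.38e-11). *Rps28* did not overlap either, at 245, 323 and 697 CPM against 722, 1042 and 1771 CPM (−1.68 ± 0.20). Under TMM, TMMwsp or total UMI scaling 6 of the 48 were lower. *Rpl22*, which encodes the eL22 protein that RiboTag tags, had 20 IP and 47 Input UMIs, and its log2 fold change of −0.77 ± 0.40 did not pass (adjusted p = 0.303). Of 20 translation factors 1, *Eif3c* of the initiation complex eIF3, was higher (0.99 ± 0.28, adjusted p = 0.0106) and 0 lower (median 0.04). Of 40 nuclear genes of the respiratory chain, whose proteins work beside the mitochondrially encoded ones, 2 were lower (*Ndufb4*, −1.70, and *Atp5l*, −1.55) and 0 higher, with a median of 0.05, against −1.54 over the 11 mitochondrially encoded rRNAs and mRNAs tested. The call of *Ndufb4* (adjusted p = 0.0432) was lost in 20 of 40 alternative settings, over which its log2 fold change ran from −3.05 to −0.76, and that of *Atp5l* was lost within each genotype alone.

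The lower protein-coding genes were short. The longest annotated transcripts of the 76 of them, the 7 mitochondrial ones included, had a median length of 1329 bases. It was 2937 bases for the higher protein-coding genes and 3135 bases for all those tested. The lower genes were also more abundant, with median levels of 199, 111 and 39.8 CPM in the same order. Whether length or level goes with the calls was not tested. Some nuclear genes with longest transcripts of 1087 (*Gins1*) to 5032 bases (*Vps8*) were nearly lost from the IPs. *Vps8*, a subunit of the CORVET complex of early endosomes (chr16:21423118-21644680, plus strand), had 1, 1, 0 and 3 UMIs in the Cre+ IPs and 0, 1, 2 and 7 in the Cre- IPs. It was at 0, 44.7 and 136 CPM over the IPs and 1069, 1418 and 2858 CPM over the Inputs, with no overlap (−4.70 ± 0.28, adjusted p = 3.78e-30). *Sez6*, a neuronal membrane protein found at synapses, was at 0, 132 and 236 CPM against 662, 1305 and 2522 CPM (−3.55 ± 0.26). *Lrrc17* had 3 UMIs in the IPs and 221 in the Inputs (−5.20 ± 0.41), *Gins1*, of the replication helicase, 7 and 136 (−3.55), and *Supt7l*, of the SAGA coactivator, 2 and 52 (−3.58). Apart from *Vps8*, these genes were named after their values were seen, because IPs and Inputs did not overlap.

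Many of the 91 higher genes rested on few libraries. For 25 of them 1 library held at least 50% of the summed IP level. *Fstl3*, a secreted binder of activins, had the smallest p of the higher genes. It had 11, 10, 216 and 11 UMIs in the Cre+ IPs and 12, 10, 12 and 89 in the Cre- IPs, and it was at 0, 157 and 1765 CPM in the Inputs. The pooled log2 fold change of 2.66 ± 0.35 (adjusted p = 1.65e-09) was 0.95 within Cre- and 4.08 within Cre+ libraries, and Cre+ IP replicate 3 alone stood at 10180 CPM. Of the 178 IP UMIs of *Cd6*, a T cell surface receptor, 162 were in Cre- IP replicate 1 (4.25). *Bhlhe23*, a transcription factor, had 52 UMIs in Cre+ IP replicate 3 (5.25), and *Gm38331* had 51 of 56 in Cre- IP replicate 2 (4.46). *Crhr2*, a receptor for urocortins, and *Rnf207* each had 68 UMIs in Cre- IP replicate 4 and the same fold change (4.14), and *Pogk* had 24 of 27 in Cre+ IP replicate 2 (3.40).

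Higher levels spread over the IPs were seen for a few abundant genes. *Il20rb*, a receptor subunit for interleukins of the IL-20 family, was at 16383, 16199, 21067 and 14155 CPM in the Cre+ IPs and 10727, 19465, 12534 and 5139 CPM in the Cre- IPs, and at 3308, 6556 and 10047 CPM in the Inputs (0.99 ± 0.15, adjusted p = 1.59e-07). Except for Cre- IP replicate 4 every IP exceeded the highest Input. *Mn1*, a transcriptional coregulator, was at 6533, 7487 and 21033 CPM in the IPs, highest in Cre- IP replicate 4, and at 1570, 3684 and 6654 CPM in the Inputs (1.05 ± 0.15). *Ptgds*, prostaglandin D synthase of glia and meninges, was at 3541, 4736 and 6548 CPM against 1771, 2851 and 3970 CPM (0.58 ± 0.13), and *Tug1*, a long noncoding RNA, at 105, 409 and 503 CPM against 0, 85.0 and 334 CPM (1.43 ± 0.31). *Vwa1* (1.03), an extracellular matrix protein, *Slc25a4* (0.72) and *Atp5a1* (0.70), both nuclear-encoded proteins of the mitochondrial inner membrane, and *Ap2m1* (0.93), of the clathrin adaptor AP-2, also passed. IPs and Inputs overlapped for each of these genes. With the Inputs summed per genotype *Il20rb* (adjusted p = 0.0827), *Vwa1* (0.126), *Ptgds* (0.32), *Slc25a4* (0.298), *Atp5a1* (0.263) and *Ap2m1* (0.163) lost their calls, and *Mn1* and *Tug1* kept theirs. *Ptgds*, *Tug1*, *Slc25a4*, *Atp5a1* and *Ap2m1* were named after their values were seen. Over all genes tested 1.32% were higher. Of the 20 genes for tubulins, actins and neurofilaments, 4 were higher (*Tuba1a*, *Tubb2a*, *Tubb3* and *Nefl*) and 0 lower, with a median of 0.37. *Tuba1a* was at 1052, 1731 and 1994 CPM in the IPs and 467, 1058 and 1456 CPM in the Inputs (0.53 ± 0.16, adjusted p = 0.0172). That count was 8 under TMM, TMMwsp or total UMI scaling, 3 without Cre- IP replicate 4, and 0 with no filter on low counts, with Inputs summed and within Cre- libraries. *Actb* did not pass (0.09 ± 0.13).

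Synaptic and cell type genes mostly did not pass. Over all genes tested 6.74% were lower and 1.32% higher, and over nuclear protein-coding genes 1.24% and 1.45%. The counts per list were not tested against these shares. Of 26 tested genes of synaptic vesicles and release, 0 were called in either direction (median −0.04), *Cplx1*, a clamp of vesicle fusion, having the smallest p among them (0.50, adjusted p = 0.0566, and 0.00404 with TMMwsp). Of 7 active zone genes 1 was lower, *Erc1* (−2.94), on 3 IP and 64 Input UMIs that lay mostly in 1 Input. Of 18 dendritic and postsynaptic genes 1 was lower, the calmodulin binder neurogranin (*Nrgn*, −0.90 ± 0.25, adjusted p = 0.0115). Its call was lost with TMMwsp (adjusted p = 0.0639), TMM, Inputs summed, without Cre- IP replicate 4 and within Cre+ libraries, with log2 fold changes from −1.57 to −0.14 over the settings. Among 14 spiny neuron genes *Adora2a* was lower on 1 IP and 17 Input UMIs (−2.67), and the median was −0.48. Among 19 astrocyte genes 1 was lower, *Mt3* (−1.16), with a median of 0.03, and 0 of 14 oligodendrocyte genes (median 0.26), 0 of 12 microglial genes (median −0.27), 0 of 15 motor protein genes (median 0.16) and 0 of 7 immediate early genes (median −0.74) were called. Of 15 spectrins, ankyrins and actin crosslinkers, *Add2* was called higher (2.02) on 41 UMIs in Cre+ IP replicate 1, and it was at −0.33 within Cre- libraries. Of 15 RNA granule proteins and 7 nuclear RNAs, 0 were called (medians 0.08 and 0.40). The calls of 2 myelin genes depended on the setting. *Cnp*, a myelin enzyme (0.53, adjusted p = 0.0566), was called higher in 15 of 41 alternative settings, and *Mbp*, myelin basic protein (0.33, adjusted p = 0.126), in 6 of 41, TMMwsp and DESeq2 among them for both. *Apoe* (0.03 ± 0.12) and *Cst3* (−0.34 ± 0.13, adjusted p = 0.0817), abundant in glia, did not pass, but *Cst3* was called lower in 3 of 41 settings, DESeq2 among them.

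Tyrosine hydroxylase (*Th*) is the rate-limiting enzyme of dopamine synthesis. The study assigned the *Th* mRNA of the striatum to local interneurons and not to dopaminergic axons. *Th* was at 2179, 2196, 2027 and 2178 CPM in the Cre+ IPs and at 1683, 2565, 1522 and 2597 CPM in the Cre- IPs. The Inputs were at 1018, 1283 and 2161 CPM in Cre+ and 1007, 1407 and 1791 CPM in Cre- mice. *Th* was thus higher in the IPs of both genotypes, at 2118 ± 377 CPM (SD, n = 8) against 1387 ± 289 CPM (SD, n = 20), with overlap (log2 fold change 0.46 ± 0.14, adjusted p = 0.0281). It was 0.38 within Cre- and 0.60 within Cre+ libraries, and the call was lost without Cre- IP replicate 2 (adjusted p = 0.0772), with no filter on low counts (0.111), with Inputs summed per genotype and within Cre- libraries. Of 16 dopaminergic core genes 11 were tested and *Th* alone passed (median 0.34). *Slc6a3*, the dopamine transporter that also drives Cre, was at 0, 182 and 281 CPM in the IPs and 0, 78.0 and 190 CPM in the Inputs (0.73 ± 0.36, adjusted p = 0.261). *Ddc*, the next enzyme of the pathway, was at 0.36 ± 0.38, and *Slc18a2*, the vesicular monoamine transporter, with 15 IP and 14 Input UMIs, at 0.47 ± 0.58. The 16 genes summed to 2173 to 4262 CPM in IPs and 1759 to 2900 in Inputs.

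**Figure D5:**
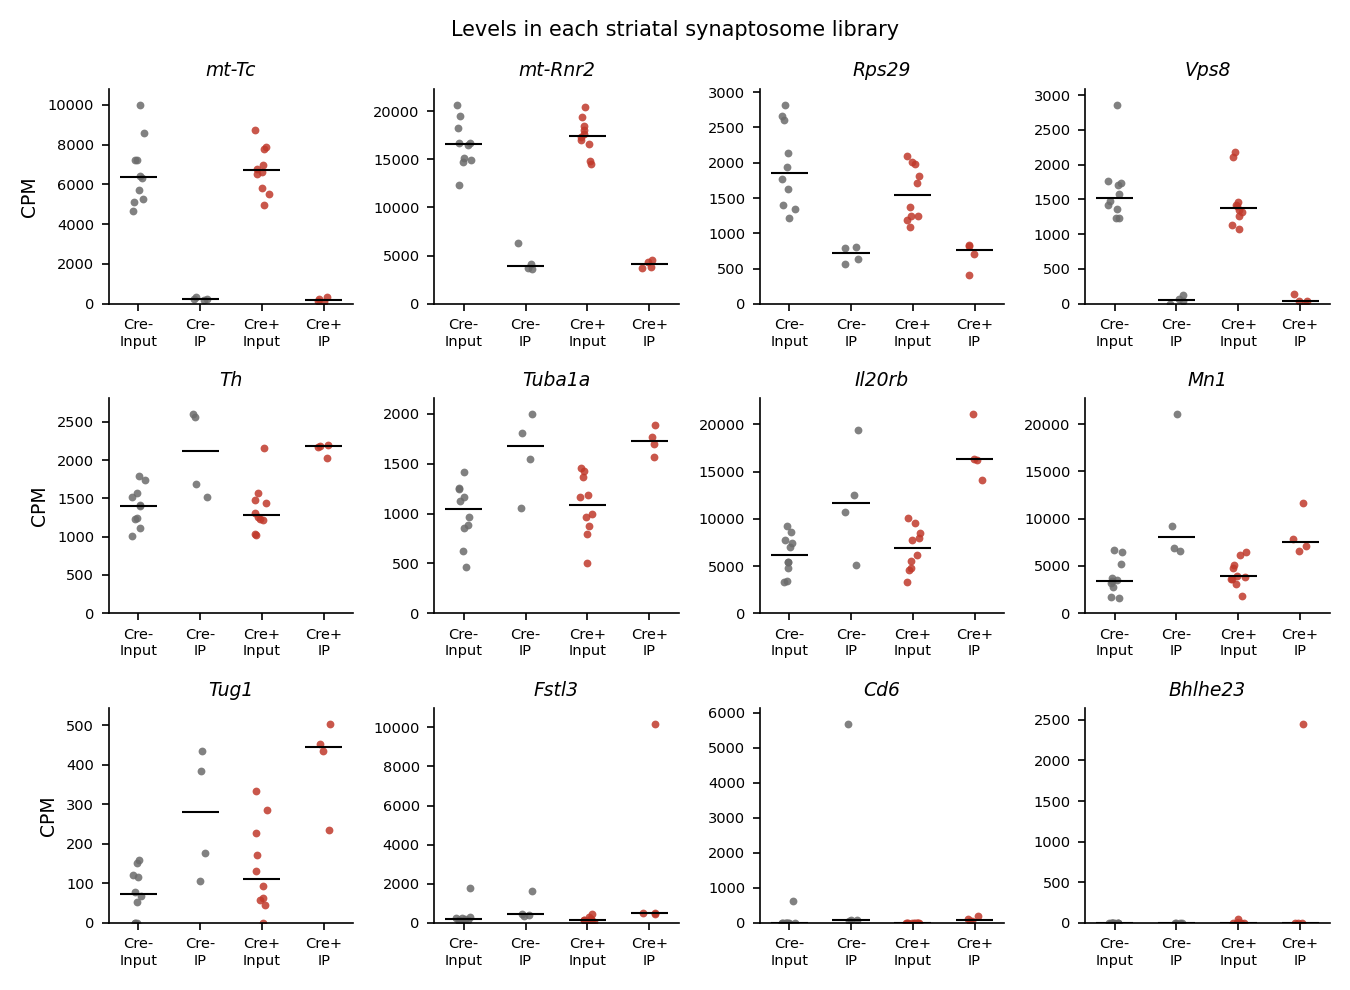
CPM of 12 genes (linear y axes from 0) in each striatal synaptosome library, by genotype and fraction, with a bar at the group median. *mt-Tc*, *mt-Rnr2*, *Rps29* and *Vps8* separate IPs from Inputs in both genotypes, *Th*, *Tuba1a*, *Il20rb*, *Mn1* and *Tug1* overlap, and *Fstl3*, *Cd6* and *Bhlhe23* are carried by single libraries.

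Few genes were called as different by genotype. Between Cre+ and Cre- libraries, 10 of 6882 genes were called (0.145%), 4 higher (0.0581%) and 6 lower (0.0872%) in Cre+, with 379 at an unadjusted p under 0.05. Those named here were each carried by 1 library: *Bhlhe23* (5.70) and *Prkab1* (3.57), the latter at 4013 CPM in Cre+ Input replicate 10, and *Arhgef38* (−5.19), *Cd6* (−3.82) and *Gm13707* (−4.30), of which *Arhgef38* was at 5980 CPM in Cre- Input replicate 8. With DESeq2 and with a robust quasi-likelihood fit 0 were called, with 172 and 369 at an unadjusted p under 0.05. The genotype by fraction term asks whether IP against Input differs between Cre+ and Cre- mice. It was called for 0 of 6882 genes in edgeR, with 374 at an unadjusted p under 0.05, and for 0 in DESeq2, with 148. On simulated counts this term recovered 0% of planted 2-fold changes and 4.12% of planted 4-fold changes. A count of 0 therefore cannot show that the genotypes do not differ. The smallest p belonged to *Fstl3* (3.16), *Kmo* (−8.47), an enzyme of tryptophan breakdown with 46 UMIs in Cre- IP replicate 2, and *Add2* (3.91), at an adjusted p of 0.0636 each. For *Th* this term was 0.27 (adjusted p = 0.946).

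Fitted apart, the genotypes gave 298 of 4482 genes called in Cre- (6.65%) and 144 of 4153 in Cre+ libraries (3.47%). Without Cre- IP replicate 4 the Cre- count was 157. Among 3624 genes tested in both, 93 were lower in both genotypes, which is 40.1% of the 232 lower in Cre- and 81.6% of the 114 lower in Cre+, and the 2 comparisons share no library. For the higher genes 4 were shared, 12.9% of 31 and 17.4% of 23. The IPs themselves held fewer UMIs in Cre+ mice, at 22950, 21853, 21218 and 22041, than in Cre- mice, at 28526, 28461, 27604 and 54675. The mean of log10 UMIs differed by −0.180 (0.661-fold; two-sided exact permutation test, p = 0.0286, the smallest value that 4 against 4 libraries allow). With any 1 IP left out the Cre+ IPs still lay below the Cre- IPs, and p was 0.0571, the smallest value that 3 against 4 allow. By its own tests, the study reported that mRNA yield did not differ significantly between these Cre+ and Cre- IPs. It also reported no significant effect of genotype on any gene in this preparation.

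Over all genes, mitochondrial ones included, some were called in more than 1 preparation. Of the 6379 genes tested in striatal synaptosomes and whole striatum, 411 were lower in the first, 480 in the second and 56 in both (13.6% of 411 and 11.7% of 480). Higher were 76, 524 and 23 (30.3% of 76 and 4.39% of 524). Of the 5665 genes tested in both synaptosome sets, 278 were lower in the striatal IPs, 133 in the midbrain IPs and 66 in both (23.7% and 49.6%). Higher were 73, 95 and 13 (17.8% and 13.7%). These overlaps were not tested against the number that chance gives. Of the 464 lower genes, 104 fell further in striatal synaptosomes than in whole striatum and 2 less far (58 and 4 with TMMwsp). Of the 429 that could be tested against the midbrain 13 fell further. Over all genes, 1.50% and 0.232% were more negative in these 2 fits. The 464 genes were chosen for low levels in the same striatal synaptosome IPs, which favours this direction in advance. These counts therefore cannot show a stronger fall in striatal synaptosomes. *Bcar1*, a scaffold of integrin signaling that was higher in IPs of whole striatum (3.01) and midbrain synaptosomes (3.21), was at 236 to 668 CPM in the striatal synaptosome IPs and its log2 fold change of 0.49 ± 0.23 did not pass (adjusted p = 0.224). The difference was called in both joint fits, at −2.44 ± 0.37 against the midbrain (adjusted p = 3.80e-06). *Rps27rt*, a retrotransposed copy of *Rps27*, fell in striatal synaptosomes (−4.56 ± 0.39) and differed from whole striatum by −5.16 (adjusted p = 4.67e-17). *Fez1*, an adaptor of kinesin transport, was at 0.07 here and differed by −3.15 from whole striatum, and *Nap1l5*, a nucleosome assembly protein relative, by 1.85 from the midbrain (adjusted p = 3.19e-04).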

How the data were processed

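The deposited values were UMI counts per gene from plate-based 3′-end RNA-seq. P2 synaptosome lysates were immunoprecipitated with biotinylated anti-HA antibody on streptavidin beads, washed in high salt and eluted with EDTA. A small part of each lysate was the Input. Per the methods of the study, poly(A) stretches were removed from the reads, STAR placed them on GRCm38 with GENCODE vM10, and the authors then merged UMIs of 1 barcode and gene that differed at a single base, which gives whole counts without normalization. Reads shared by near-identical genes can be split between them.

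Here, libraries under 10000 UMIs were left out and genes with at least 10 UMIs over a fit's libraries were tested. IP was compared with Input by edgeR 4.0.16 (quasi-likelihood test, R 4.3.3) with genotype as covariate, DESeq2 1.42.0 size factors as offsets and Benjamini-Hochberg adjustment at 0.05. The joint fit with whole striatum held genotype, preparation, fraction and the product of the last 2 terms, and that with midbrain synaptosomes region, fraction and their product in Cre- libraries alone. SE is the absolute log2 fold change over the square root of F. Groups came from sample labels. Gene classes and coordinates are GENCODE vM21 (6871 of 6882 genes matched). The test was checked on simulated counts. Named genes were the 10 called per direction with the smallest p and at least median level, up to 3 per gene list, fixed genes of interest, and up to 3 per direction in other tests. Genes that complete a count, members of the mitochondrial classes and those said to be named after their values were seen fall outside it, and a gene under this rule is not reported here. The members and the 23 lists were chosen with earlier results of these data known. A floor of 3 UMIs covers counting error only. Alternatives covered scaling, filters, DESeq2's likelihood ratio test and each library left out.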

Additional observations from a re-analysis of the deposited data

Results flagged for a closer look

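Single libraries stood apart from the rest of their group in total UMIs and in several genes. Of 97 groups and measures of 4 to 10 libraries examined, 22 held such a library, where chance gives about 1 in 20, and many of these genes had been named for a call that such a library can carry. Cre- IP replicate 4 held 54675 UMIs and 8397 detected genes, was at 1628 CPM for *Fstl3*, and carried *Crhr2* and *Rnf207* at 1244 CPM each. Cre+ IP replicate 3 was at 10180 CPM for *Fstl3* and 2451 for *Bhlhe23*, and was the lowest Cre+ IP for *Th* at 2027. Cre+ IP replicate 1 was at 1786 CPM for *Add2*, and Cre- IP replicate 3 at 0. Cre- IP replicate 1 was at 5679 CPM for *Cd6*, and Cre- IP replicate 2 at 1792 for *Gm38331* and 1616 for *Kmo*. Cre+ IP replicate 2 was at 1098 CPM for *Pogk* and had 0.119% of its UMIs on mitochondrial tRNAs, the highest of the Cre+ IPs.

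Among the Inputs, Cre- replicate 8 was at 2858 CPM for *Vps8* and 5980 for *Arhgef38*, Cre- replicate 9 at 1765 for *Fstl3* and 608.8 for *Cd6*, and Cre- replicate 2 at 3078 for *Gm13707*. Cre+ Input replicate 4 was at 2161 CPM for *Th* and replicate 10 at 4013 for *Prkab1*.

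The fold change of IP over Input differed from that of whole striatum (joint test, log2 difference) for *Fez1* by −3.151, *Rps27rt* by −5.162, *mt-Rnr2* by −2.336, *mt-Cytb* by 1.905, *mt-Nd4* by 1.813 and *mt-Nd1* by 1.472. It differed from that of midbrain synaptosomes for *mt-Rnr2* by −2.642, *Bcar1* by −2.442, *Gm5575* by −5.598, *Ggct* by 5.744 (−0.444 without Cre- IP replicate 4), *Phyhipl* by 2.943 and *Nap1l5* by 1.851. Each comparison sets different batches against each other, so batch and preparation cannot be told apart.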

How the results depend on the processing

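No paired analysis was possible because the labels carry no mouse or replicate number that IPs and Inputs share. The 22 mitochondrial tRNAs were called lower under TMMwsp, TMM and total UMI scaling, with DESeq2 and without Cre- IP replicate 4. The count of genes between IP and Input (555) was 102 of 245 with filterByExpr, 344 with Inputs summed per genotype (12 higher), 298 with Cre- and 144 with Cre+ libraries alone, and 376 to 549 with 1 IP left out. It was 574, 560, 561 and 543 with TMMwsp, TMM, total UMIs and totals without *Dusp10*. Within Cre- libraries it was 157 to 311 with 1 IP left out. For Cre+ against Cre- (10) it was 16 with TMM, 21 with no filter, 1 with filterByExpr, 17 with the legacy fit, and 0 with DESeq2 and the robust fit. For genotype by fraction (0) it was 2 with TMMwsp, 5 with TMM, 9 with no filter, 10 with the legacy fit, 4 with all 32 libraries and 0 to 2 with 1 IP left out. In whole striatum (1273) it was 650 with filterByExpr. For the difference to whole striatum (240) it was 731 with TMMwsp (639 more positive), 150 with filterByExpr, 421 with DESeq2 and 169 to 259 with 1 IP left out, and for that to midbrain synaptosomes (28) it was 239 with TMMwsp (224 more positive) and 43 with DESeq2. The difference in log10 total UMIs ranged from −0.207 to −0.108 with 1 IP left out.

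Direction turned for *Apoe* (−0.020 to 0.082 with 1 IP left out) without Cre+ IP replicate 1 (−0.0073), without Cre- IP replicate 2 (−0.020), with Inputs summed (−0.060) and in Cre- libraries (−0.039), for *Actb* with Inputs summed (−0.0086) and for *Add2* in Cre- libraries (−0.329). For genotype it turned for *Arhgef38* (0.014) and *Gm13707* (0.173) with DESeq2, for *Cd6* within Cre- libraries without Cre- IP replicate 1 (−0.043, range to 4.77 with 1 IP left out), and for *Ggct* against the midbrain without Cre- IP replicate 4 (−0.444, range to 6.06). The cause was not tested. The robust fit, totals without *Dusp10* and each Input left out were added after seeing the data. Of the other values, 6209 stayed the same. For single genes this means direction and side of the threshold, and for counts within gene lists a number close to the first. Of the single genes' values 155 lost and 83 gained a call, and 163 of the list counts moved further. At 12735 to 54675 UMIs per library, genes under about 10 UMIs in all could not be tested.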
